A study of Drosophila melanogaster with 2 samples.

Results

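Of the 5445 peaks of Ssrp-GFP binding that the authors' irreproducible discovery rate (IDR) analysis passed, 901 lay between genes and away from promoters, a share of 16.5% (Wilson 95% interval 15.6 to 17.6). These intergenic peaks were chosen by position alone: the summit, the base of highest signal in a peak, lies in no annotated gene and more than 500 bp from every annotated transcription start site (TSS). The others comprised 2198 distal intronic peaks, in introns and more than 500 bp from a TSS, 2214 promoter peaks, with a summit within 500 bp of a TSS, and 132 exonic peaks. Binding was measured by chromatin immunoprecipitation and sequencing with an antibody against green fluorescent protein (GFP), in whole embryos of a transgenic Drosophila line that stably expresses Ssrp with GFP at its C-terminal end. The embryos were of both sexes and 0 to 16 h old, so the peaks average all cell types and stages of that period. There were 2 biological replicates in 1 group, no control library was analysed here, and the files hold peaks without read numbers, so the depth behind each peak is unknown. The same rule applied to the 5445 strongest peaks of each replicate gave shares of 15.4% (839 peaks) in replicate 1 and 16.9% (922 peaks) in replicate 2, with a mean of 16.2% ± 1.08 (SD, n = 2). Peaks of 1 library are not replicates of each other, so counts are given with binomial intervals that cover counting error only, and no p-values are given.

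Ssrp is a subunit of FACT, a histone chaperone that loosens nucleosomes in the path of polymerases and puts them back behind them, and its partner is the Spt16 protein. Because of that role FACT is known mainly from transcribed genes. Sequence between genes in Drosophila holds enhancers, insulators and start sites of noncoding RNAs, and much of it is spaced widely around genes that pattern the embryo. In Drosophila, FACT has also been found together with the GAGA factor, a protein that binds GAGAG sequences at promoters and at elements far from them.

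Most intergenic summits lay in a stretch rich in A and T, and a 5-base element, CACTG or CAGTG on the other strand, was more frequent around them than in other sequence between genes. It was found within 100 bp of the summit in 417 of the 901 intergenic peaks (46.3%). The share was 27.5% of windows of that length that tile the same kind of sequence. Most intergenic peaks thus held none within 100 bp, and copies farther out in the peak were not counted. The sequences below cover 100 bp on either side of the summit, on the plus strand of the release 6 genome from RefSeq, with each CACTG or CAGTG in capitals. They show what strong, clustered and remote intergenic peaks look like, with and without the element. The first 6 are among the 11 strongest intergenic peaks, the next 3 are the strongest of the largest cluster, the next 3 lie beside genes that pattern the embryo, and the last 2 are the intergenic peaks farthest from any TSS.
COX7AL2 to CG31668, chr2L:2202313-2202513: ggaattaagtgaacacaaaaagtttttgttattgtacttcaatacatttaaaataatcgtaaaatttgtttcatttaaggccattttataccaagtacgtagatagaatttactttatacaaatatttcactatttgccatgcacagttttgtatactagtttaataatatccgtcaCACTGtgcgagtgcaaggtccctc
lncRNA:CR44603 to lncRNA:CR45695, chr2L:1638687-1638887: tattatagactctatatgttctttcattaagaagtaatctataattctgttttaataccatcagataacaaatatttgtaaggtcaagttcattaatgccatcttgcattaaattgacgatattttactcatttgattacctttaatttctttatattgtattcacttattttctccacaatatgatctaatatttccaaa
ph-d to ph-p, chrX:2124016-2124216: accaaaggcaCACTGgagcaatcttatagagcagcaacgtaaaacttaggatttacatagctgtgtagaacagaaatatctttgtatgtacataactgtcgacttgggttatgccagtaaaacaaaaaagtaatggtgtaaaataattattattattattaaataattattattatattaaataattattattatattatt
lncRNA:CR45641 to lncRNA:CR45643, chr3R:16222393-16222593: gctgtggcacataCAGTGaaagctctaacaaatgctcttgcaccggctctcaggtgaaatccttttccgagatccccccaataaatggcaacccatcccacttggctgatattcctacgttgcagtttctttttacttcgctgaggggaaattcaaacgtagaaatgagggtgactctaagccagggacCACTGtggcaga
CG43131 to RabGGTa, chr3R:5113179-5113379: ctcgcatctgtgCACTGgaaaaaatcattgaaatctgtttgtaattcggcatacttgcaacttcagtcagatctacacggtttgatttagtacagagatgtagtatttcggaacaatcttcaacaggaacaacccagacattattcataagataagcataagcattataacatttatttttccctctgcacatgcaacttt
Sol1 to Cyp9f2, chr3R:12403042-12403242: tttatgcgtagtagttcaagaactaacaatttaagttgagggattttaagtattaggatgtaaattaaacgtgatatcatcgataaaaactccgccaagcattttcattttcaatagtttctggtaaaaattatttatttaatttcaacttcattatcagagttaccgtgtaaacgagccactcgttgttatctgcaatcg
lncRNA:CR45737 to sty, chr3L:3394906-3395106: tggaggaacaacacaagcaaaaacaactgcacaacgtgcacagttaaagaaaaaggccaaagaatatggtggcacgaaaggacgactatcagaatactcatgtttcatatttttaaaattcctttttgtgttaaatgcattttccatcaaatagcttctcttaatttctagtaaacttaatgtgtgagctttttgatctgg
lncRNA:CR45737 to sty, chr3L:3396162-3396362: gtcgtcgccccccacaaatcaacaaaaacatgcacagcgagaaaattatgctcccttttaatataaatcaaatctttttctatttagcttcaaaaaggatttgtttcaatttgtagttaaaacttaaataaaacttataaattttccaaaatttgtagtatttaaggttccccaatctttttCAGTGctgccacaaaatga
Ids to lncRNA:CR45737, chr3L:3382512-3382712: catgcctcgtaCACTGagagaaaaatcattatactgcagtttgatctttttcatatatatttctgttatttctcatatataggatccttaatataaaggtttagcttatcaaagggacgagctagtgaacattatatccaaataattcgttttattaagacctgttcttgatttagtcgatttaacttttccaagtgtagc
slp1 to slp2, chr2L:3832409-3832609: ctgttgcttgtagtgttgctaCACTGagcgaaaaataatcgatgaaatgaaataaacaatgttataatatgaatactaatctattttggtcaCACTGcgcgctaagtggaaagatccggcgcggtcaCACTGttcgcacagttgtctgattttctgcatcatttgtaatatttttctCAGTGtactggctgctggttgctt
Doc2 to lncRNA:CR46451, chr3L:9025782-9025982: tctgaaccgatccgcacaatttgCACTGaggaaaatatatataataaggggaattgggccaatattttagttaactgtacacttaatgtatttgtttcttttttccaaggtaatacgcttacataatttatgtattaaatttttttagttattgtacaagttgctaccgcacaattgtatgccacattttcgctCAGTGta
Wnt4 to wg, chr2L:7295988-7296188: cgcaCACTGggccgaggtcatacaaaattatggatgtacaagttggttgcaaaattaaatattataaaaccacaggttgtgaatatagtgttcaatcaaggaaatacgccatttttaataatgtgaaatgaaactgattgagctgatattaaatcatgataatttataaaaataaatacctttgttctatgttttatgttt
CG10651 to lncRNA:CR40341, chr2L:20204723-20204923: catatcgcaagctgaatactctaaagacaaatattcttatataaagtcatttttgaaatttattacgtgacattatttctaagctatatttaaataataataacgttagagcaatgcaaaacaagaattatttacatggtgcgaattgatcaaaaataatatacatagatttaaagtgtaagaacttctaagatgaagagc
AOX4 to CG43335, chr3R:15596069-15596269: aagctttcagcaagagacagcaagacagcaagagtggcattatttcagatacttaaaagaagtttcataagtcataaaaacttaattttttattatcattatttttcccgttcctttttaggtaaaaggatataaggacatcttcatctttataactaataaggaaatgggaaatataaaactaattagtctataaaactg
Of these 14 sequences 9 held the element and 5 did not. Distances are counted from the summit to the middle base of the element. In the peak between slp1 and slp2 a CACTG stood 77 bp to the left of the summit and a CAGTG 79 bp to its right, and 2 further copies of CACTG lay between them. In the peak beside Doc2 the pair stood 75 bp to the left and 96 bp to the right. In the peak between lncRNA:CR45641 and lncRNA:CR45643 the order was turned, with CAGTG 85 bp to the left and CACTG 91 bp to the right, and this sequence was not rich in A and T, with 48.3% G and C. The peaks between ph-d and ph-p, between CG43131 and RabGGTa, between Wnt4 and wg and in the cluster beside Ids held 1 copy to the left of the summit. The strongest of those shown, between COX7AL2 and CG31668, held 1 CACTG at 79 bp to the right. Between lncRNA:CR45737 and sty, 1 peak of the cluster held a CAGTG at 84 bp to the right and the stronger one held none. The strong peaks between lncRNA:CR44603 and lncRNA:CR45695 and between Sol1 and Cyp9f2 held none either, nor did the 2 farthest peaks.

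Base composition changed steeply around the summit. In bins of 25 bp the mean share of G and C was 28.8% at the summit of the intergenic peaks, 46.6% at 300 bp on both sides, and 40.9% and 41.3% at 600 bp. Over the 201 bp around the summit it was 32.1% ± 6.10 (SD over 901 peaks), against 40.8% ± 8.50 in the 186266 tiled windows, which follow one another without overlap. The strongest peaks of each replicate gave 32.6% in replicate 1 and 32.0% in replicate 2. This was shared by the other classes, with 32.6% ± 5.96 in distal intronic and 32.3% ± 6.92 in promoter peaks, and 29.1% and 29.5% at their summits. What differed was the wider surroundings of promoter peaks, where the share of G and C was 45.8% at 600 bp on the left. A share under 30% was found in 343 intergenic peaks (38.1%, 35.0 to 41.3), against 11.5% of the tiled windows. Sequence marked as repeated or simple in the genome file made up 25.9% of the bases around intergenic summits and 28.8% of the tiled windows, and 3 summits lay in an annotated transposable element.

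**Figure D1:**
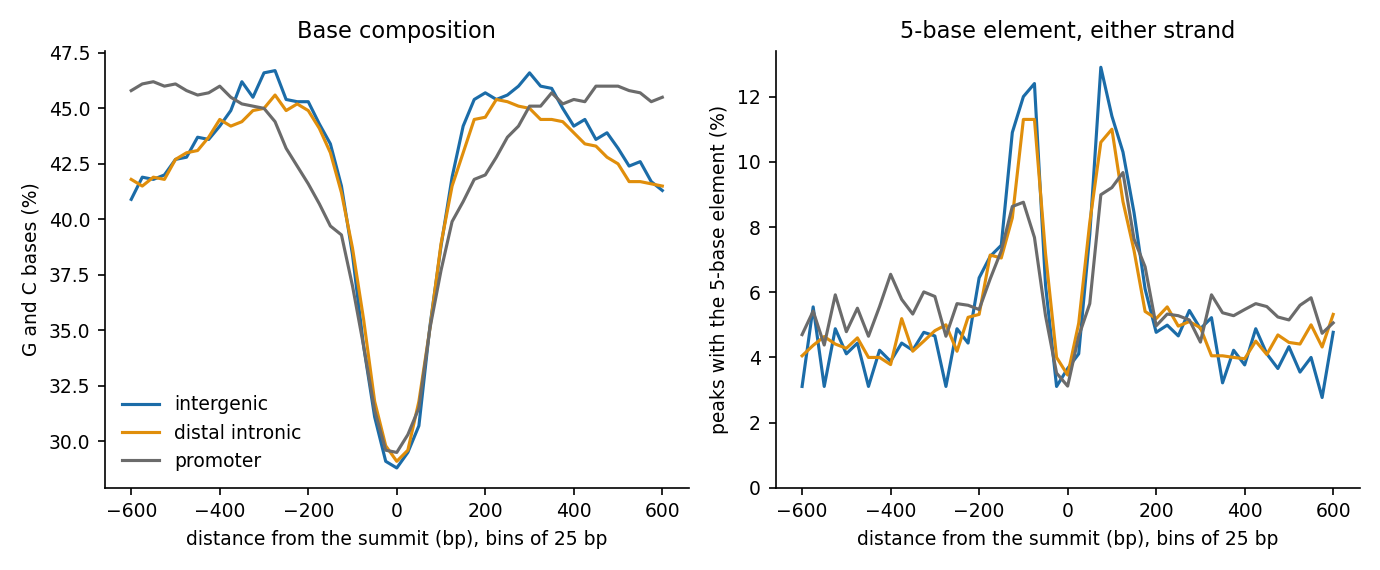
Base composition (left, mean share of G and C in percent) and share of peaks with the 5-base element on either strand (right, percent) in bins of 25 bp, by distance from the summit in bp, for 901 intergenic, 2198 distal intronic and 2214 promoter peaks. At the summit the composition falls to 28.8% in intergenic peaks, and the element is most frequent about 75 to 100 bp to either side, at 12.4% and 12.9% of intergenic peaks at 75 bp.

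The 5-base element was picked after the sequences had been read, so its shares are a description. Its share within 100 bp of the summit was 46.3% (43.0 to 49.5) in intergenic peaks, 47.0% in distal intronic and 36.9% in promoter peaks, against 27.4% of windows 500 bp to the side of the intergenic summits and 27.5% of the tiled windows. The shares were 46.4% in replicate 1 and 49.2% in replicate 2. Within the window it sat at the edges: in bins of 25 bp it was found in 12.4% of intergenic peaks at 75 bp to the left and 12.9% at 75 bp to the right, against 3.66% at the summit and 4.11% and 4.33% at 500 bp. Past the window the shares were still 10.9% and 10.3% at 125 bp to the left and right, and 7.44% and 8.44% at 150 bp. It also had a direction. CACTG lay to the left in 172 peaks (19.1%) and to the right in 82 (9.10%), and CAGTG lay to the right in 193 (21.4%) and to the left in 78 (8.66%). Both together in the order that points inward, CACTG left and CAGTG right, were found in 51 intergenic peaks (5.66%, 4.33 to 7.37), and the outward order in 21 (2.33%). For distal intronic peaks the shares were 4.60% inward and 2.82% outward, for promoter peaks 1.76% in either order, and for the tiled windows 0.629% inward and 0.649% outward. In the replicates 5.13% (replicate 1) and 5.42% (replicate 2) of intergenic peaks had the inward order. The bases next to the 569 copies were uneven as well, with T in 56.6% at the second base before CACTG and A in 59.2% to 62.4% at the 5th to 7th base after it.

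Intergenic peaks of the commonest width differed in signal from the rest. That width was 396 bp, held by 543 peaks (60.3%), and in all 543 the deposited summit was the middle of the peak. Their signal, the value the authors' peak caller gave on its own scale, had a median of 211. The other 358 peaks had a median signal of 443, and the summit was at the centre in 13 of them. The share of G and C around the summit was 31.7% in the peaks 396 bp wide and 32.7% in the others. The inward order of the element was found in 3.31% (2.11 to 5.18) of the peaks 396 bp wide and in 9.22% (6.64 to 12.7) of the others, against 0.629% of the tiled windows.

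Another 14 elements, most of them with known binding proteins, were sought on both strands in the same windows, with overlaps allowed. GAGAG, the site of the GAGA factor, was found in 170 intergenic peaks (18.9%, 16.4 to 21.6), 18.8% of distal intronic and 15.4% of promoter peaks, against 21.2% of the tiled windows and 23.2% of windows 500 bp to the side. Since GAGAG has more G than the summits do, the 343 intergenic peaks with under 30% G and C were also set beside the 21451 tiled windows of that kind: 13.4% (10.2 to 17.4) held GAGAG, against 10.4%. TATCGATA, the core promoter element bound by DREF and BEAF-32, was found in 6 intergenic peaks (0.666%), against 4.74% of promoter peaks. GGTCACACT, a core promoter element bound by M1BP, was found in 3 intergenic peaks (0.333%, 0.113 to 0.974), against 1.54% of promoter peaks. In the tiled windows the shares were 0.455% for TATCGATA and 0.0988% for GGTCACACT. TAATTA, a homeodomain site, was found in 23.1% of intergenic peaks, AAAAAAAA in 17.8% and ATATATAT in 7.44%, against 14.1%, 10.4% and 3.06% of the tiled windows. In the intergenic peaks poor in G and C the shares were 34.7%, 22.4% and 11.7%, against 30.3%, 21.6% and 8.66% in the tiled windows poor in G and C. The site of the pioneer factor Zelda, CAGGTAG, was found in 0.666% of intergenic peaks, against 0.906% of the tiled windows. GATAAG, bound by proteins such as Serpent, was found in 7.99% of intergenic peaks, against 7.93% of the tiled windows, and TTTATG, a site of caudal-type homeodomains, in 27.1%, against 22.3% of the tiled windows. TGTTTAC, a forkhead site, was found in 3.22% of intergenic peaks, against 3.76% of the tiled windows, and TTCNNNGAA, a STAT site, in 4.88%, against 6.19% of the tiled windows. CACGTG, an E-box, was found in 0.999% of intergenic peaks, against 2.20% of the tiled windows, GTGGGAA, a site of Suppressor of Hairless, in 1.66%, against 2.61%, and the repeat CACACACA in 1.44%, against 3.84%. These elements too were counted in the intergenic peaks and the tiled windows poor in G and C. For TTTATG the shares were 30.9% of such peaks, against 30.1% of the windows, for GATAAG 6.71%, against 8.59%, for TTCNNNGAA 4.96%, against 6.55%, and for TGTTTAC 3.50%, against 4.16%. For the rarer elements the shares in such peaks rest on 3 peaks or fewer each: 0.875% for GTGGGAA, against 1.04% of the windows, 0.583% for CACGTG, against 0.536%, 0.583% for CAGGTAG, against 0.308%, 0.583% for TATCGATA, against 0.681%, and 0.292% for CACACACA, against 0.709%. GGTCACACT was in none of the 343, which allows a share of up to 1.11%, against 0.0606% of the windows. A match is a run of letters, not a bound site.

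Intergenic peaks spanned most of the range of signal. Among them the signal in the IDR list was 157 at the lowest, 267 at the median (quartiles 200 and 382) and 3930 at the highest, against medians of 273 for distal intronic and 325 for promoter peaks. Of the intergenic peaks 407 (45.2%) were among the 2722 strongest of the IDR list. Among the 100 strongest peaks of all kinds 9 were intergenic, 21 distal intronic and 67 at promoters. With an overlap of at least 50% of each peak, 662 (73.5%) matched a peak in both replicate lists of 30000. Counting only the 5445 strongest peaks of each replicate, 492 (54.6%, 51.3 to 57.8) matched in both, against 57.3% of distal intronic, 63.4% of promoter and 59.2% of all IDR peaks. The median rank was 3367 in replicate 1 and 3124 in replicate 2. Peaks on the 2 sides of the 500 bp limit were alike in number: 49 summits at 501 to 600 bp had a median signal of 275, and 44 summits outside genes at 401 to 500 bp had one of 360.

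**Figure D2:**
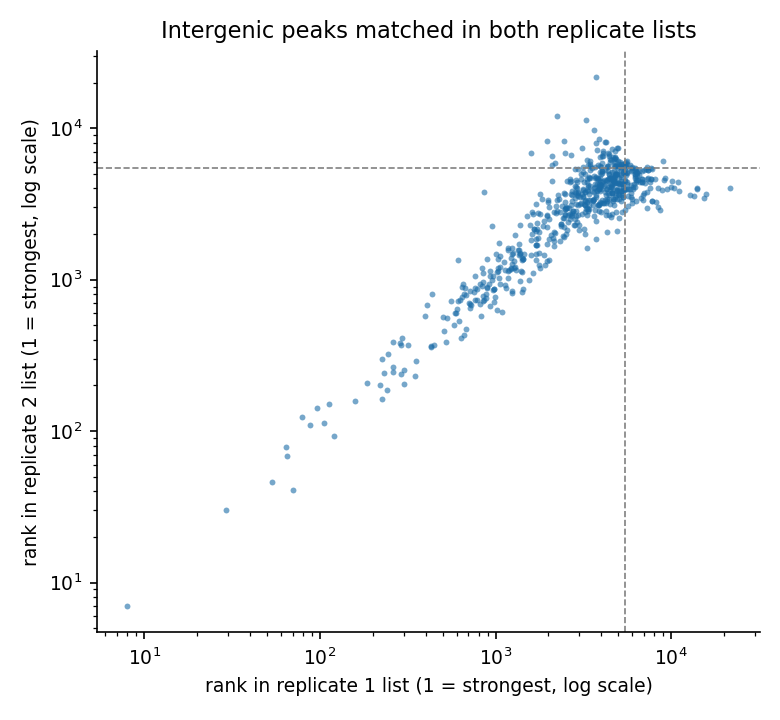
Rank of each intergenic peak in the list of replicate 1 (x axis) and of replicate 2 (y axis), both on log scales with 1 as the strongest, for the 662 peaks matched in both lists. The dashed lines mark rank 5445. The strongest peak ranked 8 and 7, and the spread widens towards the dashed lines.

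The highest intergenic peak, with a signal of 3930 (rank 9 in the IDR list, 8 in replicate 1 and 7 in replicate 2), lay between Su(z)2, a relative of Psc, and CG13323 (chr2R:13035145-13035523), 11916 bp from the nearest TSS. A pair of peaks with signals of 2044 and 1834, 1257 bp apart, lay between CG13321 and Psc, which encodes a subunit of Polycomb repressive complex PRC1 (chr2R:12958027-12958436 and chr2R:12959139-12959637). The first held rank 65 in replicate 1 and rank 68 in replicate 2, the second ranks 88 and 110. A peak with a signal of 1820 lay between ph-d and ph-p, which encode further PRC1 subunits, 830 bp from the TSS of ph-d (chrX:2123917-2124387, ranks 79 and 123). Psc, Su(z)2, ph-d and ph-p belong to the Polycomb group, whose products keep developmental genes silent. The peaks beside Su(z)2 and Psc lie in 1 neighbourhood of 2R, no list of genes held these names, and they were read together after their values were seen.

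The second strongest peak, with a signal of 2781 (rank 31), lay between COX7AL2, which encodes a relative of a cytochrome c oxidase subunit, and CG31668. The third (2298) lay in the 1340 bp between the 3′ ends of blw and CycB, which encode an ATP synthase subunit and cyclin B. Both sides of lncRNA:CR45695, upstream of chinmo, held strong peaks. On the far side signals were 2253 and 1247, and between lncRNA:CR45695 and chinmo the highest was 1215, at 1818 bp from the TSS of chinmo, which encodes a BTB zinc finger protein of temporal identity in neurons. The signal was 2043 between CG33453 and lncRNA:CR44432, 1758 between CG43131 and RabGGTa, and 1719 between Sol1 and Cyp9f2. Near tara, which encodes a nuclear protein of the trithorax group, the 4 strongest of 8 clustered peaks had signals of 1806, 1563, 1294 and 288. The median of the 8 was 240 and the lowest 174. Signals of 1438, 1413, 1372, 1371 and 1300 belonged to the peaks between slp1 and slp2, C15 and sp3, Hacd1 and Rh5, RasGAP1 and CG10809, and tRNA:Ser-GCT-2-2 and foxo, of which slp1, slp2, C15 and foxo encode transcription factors.

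Intergenic peaks thinned out with distance from start sites. The median distance to the nearest TSS was 2967 bp (quartiles 1315 and 5979), with 2867 bp in replicate 1 and 3094 bp in replicate 2, against 6390 bp for all bases where an intergenic summit could lie, and 2829 bp for distal intronic peaks. The rate was 56.2 peaks per Mb of such sequence at 0.5 to 1 kb from a TSS, 38.8 at 1 to 2 kb, 30.7 at 2 to 5 kb, 21.4 at 5 to 10 kb, 17.3 at 10 to 20 kb and 2.81 beyond 20 kb. In replicate 1 the rates at both ends were 52.3 and 2.60, and in replicate 2 they were 53.0 and 3.33. Of the 9.61 Mb beyond 20 kb only 2.63 Mb occurs once in the genome, judged by runs of 32 bases. For 98.8% of the intergenic peaks the 201 bp around the summit lay wholly in sequence of that kind. Per Mb of sequence that occurs once, the rates were 60.4, 42.5, 34.7, 26.0, 24.4 and 10.2. The order of the bins was the same with both denominators, and the last step was smaller with the second. Summits lay upstream of the gene with the nearest TSS in 553 cases (61.4%, 58.2 to 64.5). No such share is given for all bases where an intergenic summit could lie, so this shows no preference of the peaks.

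**Figure D3:**
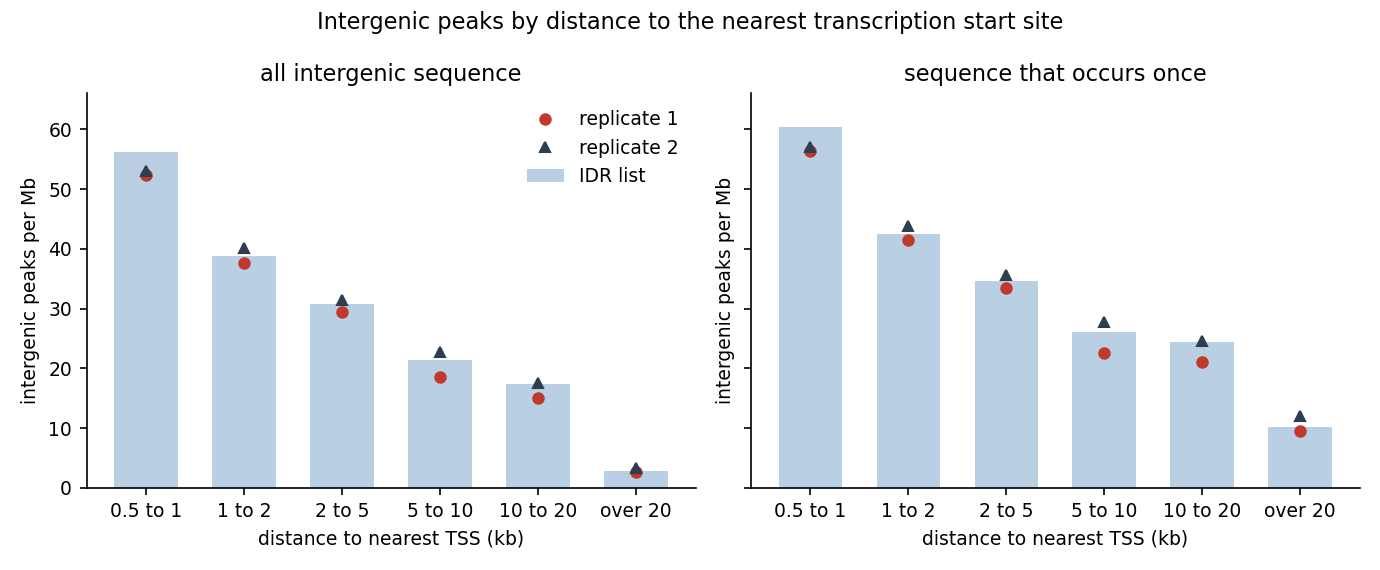
Intergenic peaks per Mb by distance to the nearest TSS in kb, over all intergenic sequence (left) and over the part that occurs once in the genome (right). Bars show the IDR list, circles replicate 1 and triangles replicate 2. On the left, rates fall to 2.81 per Mb beyond 20 kb, against 56.2 at 0.5 to 1 kb, and on the right to 10.2, against 60.4.

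A minority lay very far out: 117 (13.0%, 10.9 to 15.3) were more than 10 kb and 27 more than 20 kb from every TSS. The farthest lay 43216 bp from the TSS of lncRNA:CR40341, between it and CG10651, with a signal of 200. At the 50% overlap it had no match in replicate 1, and it ranked 4373 in replicate 2. The next, 39299 bp out between AOX4 and CG43335, had a signal of 165 and ranked 15713 in replicate 1 and 3695 in replicate 2. A pair between NijA, an adhesion gene, and CG43245 lay at 36659 and 33011 bp, with signals of 418 and 597. The only one of the 5 beside a transcription factor gene lay 33861 bp from vvl, which encodes a POU protein of trachea and neurons, with a signal of 646 and ranks of 763 and 1060.

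Chromosome arms differed in their rate. On 3L 297 intergenic peaks gave 32.7 per Mb of eligible sequence, against 22.2 for 2L, 2R, 3R and X together, a ratio of 1.47, with 1.52 in replicate 1 and 1.47 in replicate 2. The other arms had 29.9 (2L, 201 peaks), 24.0 (3R, 184), 19.2 (X, 102) and 15.6 (2R, 116). The 4th chromosome had 1 peak in 0.245 Mb and Y had none in 2.51 Mb, of which 0.368 Mb occurs once, so up to 0.425% of intergenic peaks could lie there by counting error. Per Mb that occurs once the rates were 45.8 on 3L, 35.9 on 2L, 29.0 on 3R, 26.6 on X and 24.7 on 2R. As a share of each arm's IDR peaks the intergenic ones made up 24.6% on 3L, 19.8% on 2L, 14.7% on 3R, 12.5% on 2R and 9.82% on X.

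**Figure D4:**
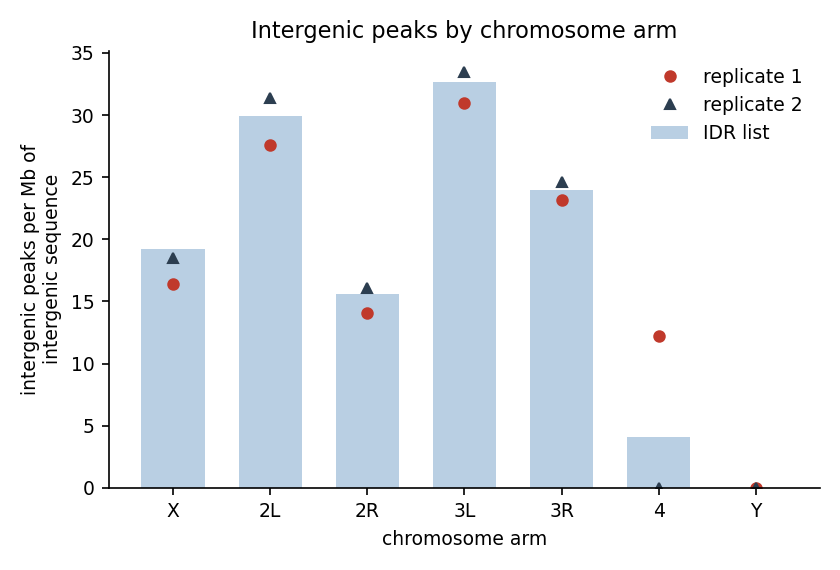
Intergenic peaks per Mb of eligible intergenic sequence on each chromosome arm. Bars show the IDR list, circles replicate 1 and triangles replicate 2. In both replicates 3L is highest (31.0 and 33.5), followed by 2L (27.6 and 31.4). The 4th chromosome rests on 1 peak.

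Gaps between neighbouring genes differed by the way those genes point. Divergent gaps, which both genes are transcribed away from, held 240 intergenic peaks at 31.5 per Mb, tandem gaps 462 at 23.2 and convergent gaps 199 at 19.8. The ratio of divergent to convergent was 1.59, with 1.59 in replicate 1 and 1.64 in replicate 2, and 1.33 per Mb that occurs once. Rates also fell with distance from a TSS, and that distance was not held equal between the kinds of gap. The highest rate, 56.0 per Mb, was in gaps of up to 2 kb, and the lowest, 3.32, in those over 50 kb (11.4 per Mb that occurs once). In all, 569 of 6626 gaps held an intergenic peak. Their median length was 7961 bp, against 1692 bp for all 6626. There were 385 gaps with 1 peak and 184 with 2 or more, which together held 516 peaks.

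Clusters of 3 or more intergenic peaks with neighbouring summits at most 5 kb apart held 201 of them (22.3%, 19.7 to 25.1), with 22.1% in replicate 1 and 23.1% in replicate 2. Of the 50 clusters 25 had 3 peaks, 12 had 4 and 13 had 5 or more. Their peaks had a median signal of 287, against 261 for those outside. On 3L 107 of its 297 intergenic peaks were clustered, against 94 of 603 on 2L, 2R, 3R and X. The rate of peaks was also higher on 3L, at 32.7 per Mb against 22.2. A fixed step of 5 kb groups more peaks where they lie denser, and clustering beyond that was not tested. Over all intergenic peaks the median distance to the next was 6449 bp, and 129 had another within 1000 bp. The smallest step was 199 bp, and 35 intergenic peaks lay within 10 bp of, or overlapped, another IDR peak, so close neighbours can be parts of 1 enriched region that the peak caller divided.

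The largest cluster held 9 peaks over 17371 bp on 3L (summits 3380694 to 3398065) and no other IDR peak. It ran from Ids past lncRNA:CR45737 to sty, which encodes Sprouty, an inhibitor of receptor tyrosine kinase signalling. In order of position the signals were 350, 694, 402, 170, 216, 186, 1186, 1126 and 190. The peaks of 1186 and 1126 lay between lncRNA:CR45737 and sty, the first with ranks of 348 in replicate 1 and 230 in replicate 2, the second with 261 and 386. In that span replicate 1 had 8 intergenic peaks among its strongest 5445, and replicate 2 had 10. The next cluster, of 8, stood on 3R in the row of noncoding RNA genes between mtSSB and tara and shared its 16786 bp with 4 promoter peaks. Replicate 1 had 6 intergenic peaks there among its strongest 5445, and replicate 2 had 4. The third lay between lncRNA:CR44363 and CG7560, with 7 peaks in 8543 bp and signals up to 1110 (ranks 316 and 372).

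Clusters of 6 peaks stood beside Doc2, between CG7320 and lncRNA:CR45935, beside the tRNA:Phe-GAA genes and tal, and beside Gr93a and Gr93b. Doc2 encodes a T-box factor of the dorsal amnioserosa and heart, and its 6 peaks had signals of 332, 538, 362, 228, 246 and 200. The gene tal encodes small peptides for leg and epidermis, and Gr93a and Gr93b encode gustatory receptors. The peaks beside Gr93a included signals of 703 and 768, with ranks of 849 and 609 in replicate 1, and 720 and 725 in replicate 2. Among the clusters of 5, the one beside scyl, which encodes an inhibitor of growth signalling, lay in 5131 bp with every signal between 437 and 1112. Further clusters of 5 stood between spel1 and ppk, between soti and cv-c, and in 3 other places on 3L. A cluster counts neighbours and not binding events.

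By gap, the counts were highest on 3L. The 32964 bp between tRNA:Ile-TAT-1-2 and CG13898 held 10 intergenic peaks, with 11 in replicate 1 and 7 in replicate 2, and the 75047 bp between NijA and CG43245 held 10 in the IDR list and in each replicate. The gaps between lncRNA:CR44363 and CG7560 and between CG7320 and lncRNA:CR45935 held 9 each. Those right of Ids, Doc2, Tollo, a Toll-like receptor gene, and vvl held 6 each. At Tollo the replicates differed, with 2 peaks in replicate 1 and 6 in replicate 2.

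The genes on either side of these gaps had promoter peaks at a share near that of all genes. They numbered 1058, or 5.79% of the 18277 annotated genes. Of these 184 (17.4%, 15.2 to 19.8) had an IDR summit within 500 bp of a TSS, against 16.3% of all annotated genes and 15% (14.3 to 15.7), or 1425, of the 9512 genes beside a gap that could hold an intergenic peak. With the peaks of replicate 1 alone the share was 19.4% (17.1 to 22.0), against 16.7% of all genes and 15.3% of those beside such a gap. With the peaks of replicate 2 alone it was 15.5% (13.4 to 17.7), against 16.0% and 14.9%. Among protein-coding genes it was 18.7%, against 19.3% of all such genes. A promoter peak at 1 or more neighbouring genes accompanied 272 intergenic peaks (30.2%), and one on both sides 33 (3.66%). With neighbours on 2 sides, these shares cannot be set beside the shares per gene, and no background is given for them. Genes for noncoding RNAs made up 28.5% (25.9 to 31.3) of the neighbours, against 15.3% of the genes beside any such gap. These shares per gene do not allow for gap length. Long noncoding RNA genes had a median of 3593 bp of eligible sequence, against 1133 bp for all genes. Per Mb that occurs once, the rate beside them was 38.6, against 32.8 for all genes. The TSS of a noncoding RNA gene was the nearest for 294 intergenic peaks (32.6%), a share given without a background.

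Of 17 gene lists, those of segmentation and of neuronal identity had the highest shares of genes beside an intergenic peak. Long gaps give more room for a peak, so the rate per Mb of the sequence beside the listed genes is given too. For all genes it was 23.1 per Mb, or 32.8 where the sequence occurs once. On the second basis it was 106 for dorsoventral, 65.6 for tRNA, 49.1 for segmentation, 45.9 for proneural and 42.1 for neuronal identity genes. Adhesion genes had 41.3, ligand genes 40.7, cuticle genes 33.8, nuclear receptor genes 21.6, mesoderm genes 18.6, chemoreceptor genes 18.6 and microRNA genes 16.2. For cytosolic ribosomal protein and long noncoding RNA genes it is given below. Neighbouring genes share their gaps, and several genes stand in 2 lists, so the counts are not independent. The listed genes beside a peak were 397 in all, with 375 in replicate 1 and 401 in replicate 2.

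Of 33 segmentation genes, 13 (39.4%, 24.7 to 56.3) stood beside an intergenic peak, at 48.5 per Mb, with 39.9 in replicate 1 and 54.2 in replicate 2. Their gaps were long, with a median of 8967 bp of eligible sequence per gene, against 1133 bp for all genes. The strongest lay between slp1 and slp2, which encode forkhead factors of the pair-rule and segment polarity steps (chr2L:3832348-3832669, ranks 226 and 164). Next came ptc, the Hedgehog receptor gene, with a signal of 797 at 5256 bp from its TSS and ranks of 606 and 639. The gap between wg and Wnt4, both Wnt ligand genes, held 5 peaks with signals of 213, 211, 293, 173 and 650 by position. The peak of 650 had no match in replicate 1 and ranked 886 in replicate 2. A peak with a signal of 531 lay beside oc, a head gap gene, and the gap genes kni and tll had peaks of 239 and 198.

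Of 23 dorsoventral patterning genes, 5 (21.7%) stood beside an intergenic peak. Doc2 and Doc1, T-box factor genes of the dorsal side, had 538 and 221. The LIM homeodomain factor gene tup had 510, and twi, the mesoderm determinant gene, had 301 with no match in replicate 2. Their rate of 105 per Mb rests on 11 peaks, 7 of them beside Doc2. None of these 23 genes had a promoter peak, against 16.3% of all annotated and 19.3% of all protein-coding genes. Of 31 genes for neuronal homeobox and identity factors, 12 (38.7%, 23.7 to 56.2) stood beside an intergenic peak at 40.9 per Mb. The highest signal was 863 (ranks 531 and 558) between toe and eyg, Pax6-like genes, and vvl had 646. Again none of the 31 had a promoter peak, nor did any of 8 Hox genes. Other developmental lists held genes with promoter peaks, at shares on both sides of the 16.3% of all annotated genes. Such genes were 7 of 21 nuclear receptor genes (33.3%), 7 of 25 proneural and neuroblast genes and 12 of 48 adhesion genes. They were 4 of 24 mesoderm genes (16.7%), 4 of 33 segmentation genes (12.1%) and 3 of 34 ligand genes (8.82%). Of the 25 proneural and neuroblast genes, 6 stood beside an intergenic peak, at 45.9 per Mb. They were led by nerfin-1, a zinc finger gene of early neurons with 3 peaks of up to 357. The SOX genes D and SoxN followed with 301 and 296.

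Genes of the cell surface and of signalling came close behind. Of 48 adhesion and axon guidance genes, 15 (31.2%, 19.9 to 45.3) stood beside an intergenic peak at 40.4 per Mb. The Toll-family gene 18w had a peak of 938 (ranks 509 and 455), robo2, a Slit receptor gene, one of 604, and Tollo 9 peaks of up to 475. Of 34 signalling ligand genes there were 9 (26.5%) at 39.4 per Mb, among them pyr and ths, the FGF ligand genes, which share a gap with 3 peaks of up to 378. Of 24 mesoderm, muscle and heart transcription factor genes there were 5, at 17.7 per Mb, below the rate for all genes in the IDR list. In replicate 1 the rate was 28.2 per Mb of all eligible sequence, against 21.5 for all genes. For sequence that occurs once, the replicate 1 rate beside these genes is not given. The strongest lay beside bin, a forkhead gene of the visceral mesoderm, with a signal of 1081 but a match in replicate 2 only, followed by srp (245), a GATA factor gene, and Poxm (218). Nuclear receptor genes had 3 of 21 at 21.5 per Mb, namely kni, tll and Hr51. None of 8 Hox genes stood beside an intergenic peak of the IDR list, which allows a share of up to 32.4%, and 1 did in replicate 2.

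Genes for ribosomal proteins have short gaps. Of 86 cytosolic ribosomal protein genes, 52 (60.5%) had a promoter peak and 4 (4.65%, 1.82 to 11.4) stood beside an intergenic one, near the 5.79% of all genes, with 507 bp of eligible sequence per gene at the median. These were RpL17, RpS23, RpLP0 and RpS27, each with a promoter peak and with intergenic signals of 315, 256, 249 and 230. Their rate was 9.13 per Mb, or 20.7 per Mb that occurs once. Of 73 mitochondrial ribosomal protein genes only mRpL21 (signal 191) stood beside one (1.37%, 0.242 to 7.36), and the rate of 100 per Mb rests on that peak. Of 32 proteasome subunit genes none stood beside one, which allows up to 10.7%.

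Among genes for cuticle and senses, 8 of 115 cuticle protein genes stood beside an intergenic peak at 33.2 per Mb, led by Cpr76Ba (442) and Cpr47Eg (317). There were 11 of 236 chemoreceptor and odorant-binding protein genes at 16.8 per Mb, led by Gr93a (768), Gr89a (535) and Obp56h (409). Of RNA genes, 288 of 1945 long noncoding RNA genes (14.8%, 13.3 to 16.5) stood beside one at 30.7 per Mb, or 38.6 per Mb that occurs once. For 17 of 295 tRNA genes (5.76%) the rate was 61.8 per Mb, with 63.6 in replicate 1 and 53.0 in replicate 2, and it rests on 35 peaks, of which 10 lay in the gap of tRNA:Ile-TAT-1-2. Of 255 microRNA genes 4 did, led by mir-4981 with a signal of 649 at 857 bp from its TSS (ranks 961 and 848).

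**Figure D5:**
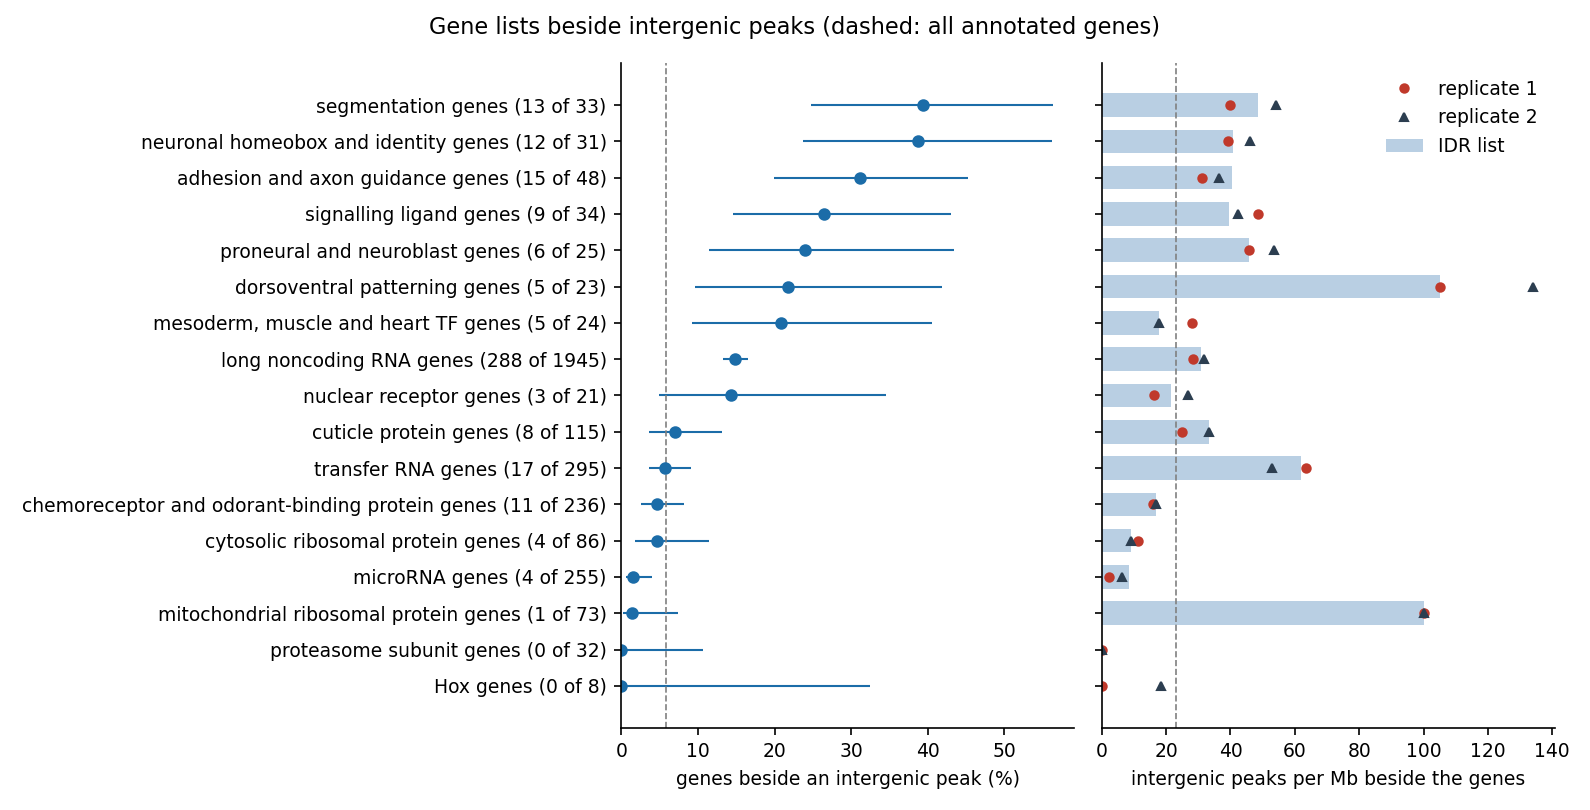
Share of the genes of each list that stand beside an intergenic peak (left, percent, with Wilson 95% intervals) and intergenic peaks per Mb of the sequence beside the listed genes (right; bars show the IDR list, circles replicate 1, triangles replicate 2). Dashed lines mark all annotated genes, 5.79% and 23.1 per Mb. Where the sequence occurs once, the rate for all genes is 32.8 per Mb. Segmentation and neuronal identity genes lead on the left at 39.4% and 38.7%. On the right, the rate for mitochondrial ribosomal protein genes rests on 1 peak.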

How the data were processed

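The authors deposited 4 peak lists on the dm6 assembly: 30000 peaks for each replicate and for both pooled, and the 5445 peaks of the IDR list. The deposited signal of each peak has a different scale in every list, and served only to rank and describe peaks. The deposited −log10 q-values were not used, because many are tied at a cap. The text deposited with the samples derives every list from replicate alignments and 1 further shared alignment, and the IDR list from the replicate and pooled lists, so matches between lists are not independent. Aligner, peak caller and IDR threshold: not given in the sources used here.

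Summits, the start plus the deposited offset, were placed on genes of Ensembl release 115, without transposable elements (18277 genes on 7 chromosomes), and on the RefSeq genome of release 6. All peaks fitted within the chromosome lengths of that genome. In the IDR list 4 summits outside their own peak were moved to its edge, and none of these was intergenic. Eligible sequence, 39.0 Mb, is every base outside genes and more than 500 bp from a TSS, and a gap is a stretch between neighbouring genes. A base occurs once when the run of 32 bases that starts there has no other copy on either strand. Values per replicate use its 5445 strongest peaks. Counts were made in python 3.11.15 with numpy 2.4.6 and pandas 2.3.3, tested on simulated positions with known answers, and drawn with matplotlib 3.10.9. With 1 group there was no test. The intergenic peaks, the 17 gene lists and the elements were chosen with earlier results of these data known, and CACTG after the sequences were read. The ligand list also holds the receptor gene Alk and the adhesion list the transcription factor gene tey, and 4 listed symbols had no gene. Genes were named by fixed rules: those beside the 20 strongest intergenic peaks, the 10 fullest gaps, the 10 largest clusters and the 5 farthest peaks, and up to 3 of each list by signal. Further genes named from the lists were chosen after their values were seen.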

Additional observations from a re-analysis of the deposited data

How the results depend on the processing

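Each replicate alone kept the values close to those of the IDR list: 15.4% to 16.9% intergenic, 22.1% to 23.1% in clusters, 32.0% to 32.6% G and C, 19.0% to 19.3% with GAGAG and 26.8% to 27.1% in divergent gaps. The ratio of the rate at 0.5 to 1 kb to that past 20 kb, 20 in the IDR list, was 15.9 to 20.1, that of 3L to the other large arms 1.47 to 1.52, and that of divergent to convergent gaps 1.59 to 1.64. Over sequence that occurs once, a choice made after seeing the data, these ratios were 5.92, 1.56 and 1.33. In the 2722 strongest peaks of the IDR list the intergenic share was 15%, the clustered share 11.8%, with fewer peaks to form clusters, the share of neighbouring genes with a promoter peak 9.40%, the GAGAG share 20.9% and the divergent share 25.3%. In the 10890 strongest pooled peaks the clustered share was 37.3%, that of neighbouring genes with a promoter peak 27.4%, the G and C share 33.0%, and the GAGAG and divergent shares 17.5% and 26.0%. With a promoter limit of 250 bp the intergenic share was 20.8% and the median distance 1909 bp. The GAGAG and divergent shares were then 18.5% and 30.0%. The share of neighbouring genes with a promoter peak was 28.8%, but promoter peaks were still counted within 500 bp of a TSS. Intergenic peaks at 250 to 500 bp thus counted as promoter peaks too, so this share cannot be set beside the 17.4% of the main setting. With 1000 bp the intergenic share was 13.6%, the median distance 3803 bp and the divergent share 25.2%. With protein-coding genes only, 19.7% were intergenic, the median distance was 4658 bp, 26.9% were in clusters, 19.3% had GAGAG and 33.0% were in divergent gaps. The clustered share was 8.44% with steps of at most 2 kb, 39.3% with 10 kb, 46.1% with 2 peaks as the minimum and 20.8% with summits within 500 bp merged, the last chosen after seeing the data. Within 50 bp of the summit the G and C share was 29.4% and the GAGAG share 6.88%. Any overlap of 1 bp in place of 50% matched 97.3% of intergenic peaks in both replicates, against 73.5%. The backgrounds of these shares were not recomputed for longer and shorter lists, which themselves change the number of genes with a promoter peak. No paired analysis was possible because there is 1 group. Read depth is unknown, and with 2 replicates the SD rests on 1 difference.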
